A study of Mus musculus with 10 samples.

Results

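Transforming growth factor beta (TGF-beta) is made as 3 ligands, encoded by Tgfb1, Tgfb2 and Tgfb3, and is read by a receptor pair, encoded by Tgfbr1 and Tgfbr2, with Tgfbr3 (betaglycan) as a co-receptor. The receptors phosphorylate SMAD2 and SMAD3, and SMAD7 inhibits the receptors. These 9 genes were chosen by name, as ligands, receptors and SMADs of the pathway, and their counts were compared between 4T1 tumors with and without a guide RNA against TAZ. All 9 were among the 17864 genes of the count table, and all 9 passed the filter on low counts, which left 14816 genes to test.

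Each ligand is secreted bound to its own propeptide in a latent complex, which binding proteins hold in the matrix and from which integrins and proteases can release it. The free ligand brings the type II receptor (TGFBR2) together with the type I receptor (TGFBR1), which then phosphorylates SMAD2 and SMAD3. These bind SMAD4, enter the nucleus and act on target genes, among them genes of matrix proteins and of their own inhibitors. In mammary tumors the pathway is known both for growth arrest of epithelial cells and for effects on fibroblasts, vessels and immune cells.

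The tumors were grown from 4T1, a line of mouse mammary carcinoma cells, which carried Cas9. In 5 tumors (sgCon) the cells had the control guide RNA, and in the other 5 (sgTaz) they had one that targets Wwtr1, which encodes TAZ, a co-activator of TEAD transcription factors. Cas9 was thus present in both groups. By the methods, guides were delivered with lentivirus, and female mice aged 6 to 8 weeks received the cells in a mammary fat pad. The host strain of the sequenced tumors, the day of harvest and whether the sgTaz cells were 1 clone are not given in the sources used here. The host's own Wwtr1 was not targeted, so TAZ loss is limited to the injected cells. Tumors are numbered 1 to 5 in both groups, and since the labels do not say that each came from a separate mouse, p-values measure the spread between these tumors.

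The sgCon tumors had 14753922 to 19595821 counts each and the sgTaz tumors 12185383 to 18395558. Levels are given in CPM, the normalised read count of edgeR, in which the count of a gene is divided by the TMM-scaled total of its tumor. Wwtr1 was at 115 to 192 CPM in sgCon and at 86.6 to 139 CPM in sgTaz tumors, so the groups overlapped, and its log2 fold change of -0.59 (SE 0.15) had an edgeR adjusted p of 0.0960. By the methods the RNA came from whole tumors, and markers of cells other than tumor cells were present in every group. Summed markers of epithelial tumor cells ranged from 1778 to 3795 CPM in sgCon and from 1381 to 2806 CPM in sgTaz tumors. Markers of lymph node stroma summed to 35.4 to 731 CPM in sgCon tumors and to 1.40 to 6.72 CPM in sgTaz tumors 1 to 4, whereas sgTaz tumor 5 stood apart at 357 CPM.

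The 3 ligands are separate genes, and the ends of their coding sequences show how close they are and how far reads can tell them apart. In mm10, Tgfb1 (ENSMUSG00000002603.15) lies on the plus strand at chr7:25687002-25705077, Tgfb2 (ENSMUSG00000039239.14) on the minus strand at chr1:186622792-186705989, and Tgfb3 (ENSMUSG00000021253.7) on the minus strand at chr12:86056745-86079041. Their annotated proteins have 390, 442 and 412 codons. The last 60 coding bases before the stop codon, which encode the end of the mature ligand, are shown 5′ to 3′ on the strand of the gene, from chr7:25704880-25704939, chr1:186625451-186625510 and chr12:86057783-86057842. Capitals mark the 39 bases that are the same in all 3 genes.
Tgfb1: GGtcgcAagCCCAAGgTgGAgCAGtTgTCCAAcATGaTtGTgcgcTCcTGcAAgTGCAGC
Tgfb2: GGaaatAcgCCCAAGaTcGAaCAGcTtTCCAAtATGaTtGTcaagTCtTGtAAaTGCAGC
Tgfb3: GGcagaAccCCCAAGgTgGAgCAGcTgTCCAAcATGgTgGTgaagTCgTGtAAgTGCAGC
Over this stretch, 47 of 60 bases were the same in Tgfb1 and Tgfb3, 46 in Tgfb2 and Tgfb3, and 42 in Tgfb1 and Tgfb2. No run of more than 15 bases was shared between annotated transcripts of any 2 ligands. Among the receptors the longest shared run was also 15 bases. Between Smad2 and Smad3, the closest pair in this respect, it was 23 bases.

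Of the 9 genes, Tgfb3 was the one that separated the groups. Its level was higher in all 5 sgTaz tumors than in any sgCon tumor, and the mean was 1.49-fold higher. The levels of the 3 receptor genes were also higher on average in sgTaz tumors, by 1.22- to 1.66-fold, but each overlapped between the groups. The levels of Tgfb1, Tgfb2, Smad2, Smad3 and Smad7 differed by less than the tests could show. With the quasi-likelihood test of edgeR and Benjamini-Hochberg adjustment over all genes tested, none of the 9 had an adjusted p below 0.05. At an unadjusted p below 0.05, 4 of 9 were higher in sgTaz tumors, against 9.86% of all genes tested. None of the 9 was lower at that threshold, against 11.9%. In that fit 1 gene of 14816 had an adjusted p below 0.05, which is 0.00675% of the genes tested.

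**Figure D1:**
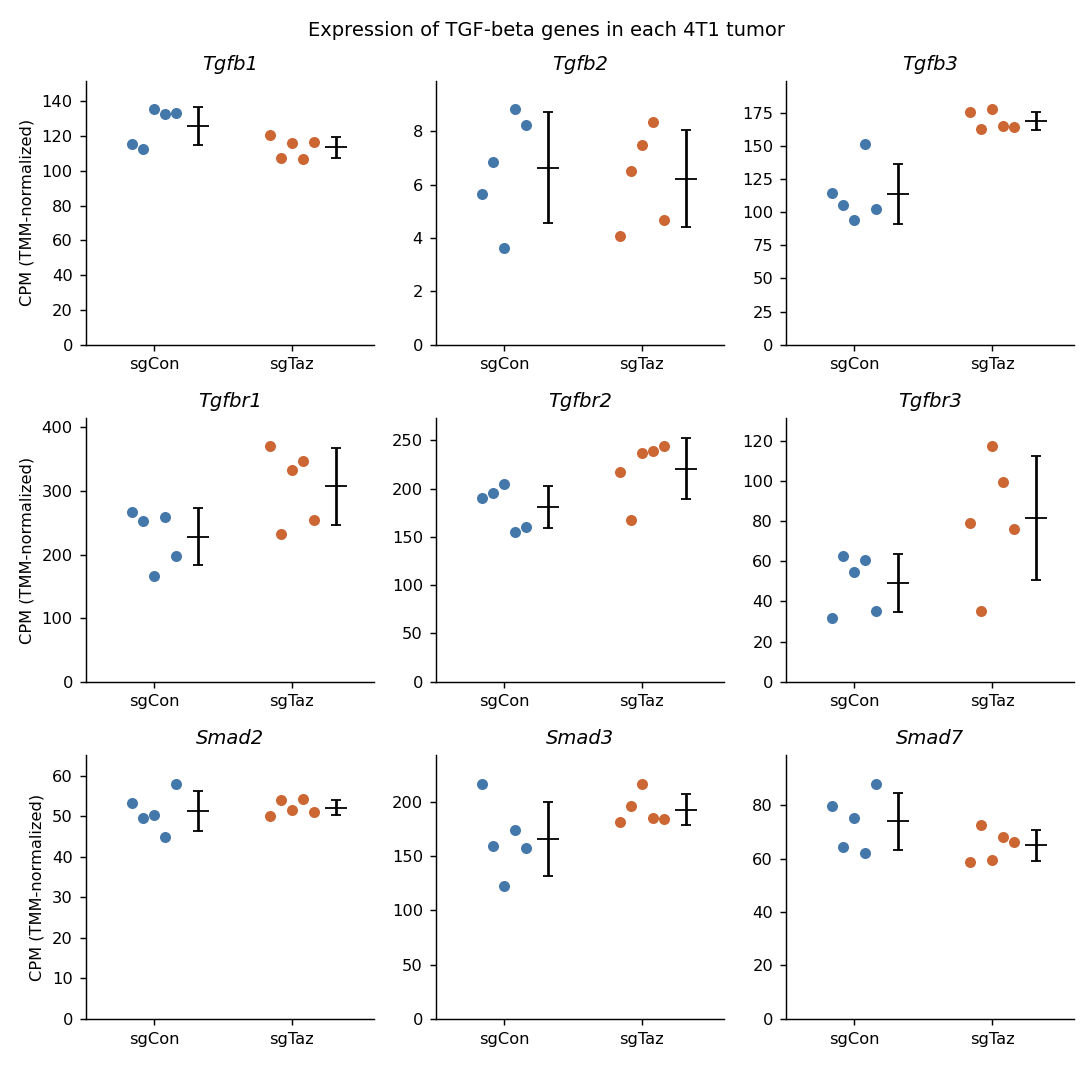
Level of each of the 9 genes in each tumor, in CPM (y axis, from 0), for sgCon tumors 1 to 5 (blue, left to right) and sgTaz tumors 1 to 5 (orange, left to right), with the group mean and SD in black. The Tgfb3 level was 94.1 to 152 CPM in sgCon and 162 to 178 CPM in sgTaz tumors, whereas the points of the other 8 genes overlap between the groups.

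Tgfb3, a ligand best known from palate and lung development and from wound repair, was measured at 114, 105, 94.1, 152 and 103 CPM in sgCon tumors 1 to 5. In sgTaz tumors 1 to 5 it was at 175, 162, 178, 165 and 164 CPM. The lowest sgTaz tumor was above the highest sgCon tumor, tumor 4, and the other 4 sgCon tumors were at 114 CPM or less. The sgTaz tumors also lay closer together, with 169 ± 7.09 CPM (SD, n = 5) against 114 ± 22.4 CPM (SD, n = 5) in sgCon tumors. The log2 fold change was 0.57 (SE 0.11, 95% interval 0.32 to 0.82), which is 1.49-fold with an interval from 1.25 to 1.77. In edgeR the unadjusted p was 0.000383, rank 68 of all genes tested, and the adjusted p was 0.0824. An exact two-sided permutation test on log2 CPM gave p = 0.00794, the smallest that a comparison of 5 with 5 tumors allows. Groups without overlap and higher in sgTaz were found for 2.44% of the genes tested.

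The call for Tgfb3 depended on the test. DESeq2, which the study's methods name, gave a log2 fold change of 0.59 with an adjusted p of 0.00174, and limma-voom with sample quality weights gave 0.63 with an adjusted p of 0.0146. These tools called many more genes than edgeR did, 6.87% of those tested with DESeq2 and 10.4% with limma-voom. One sgCon tumor bore on the edgeR call, since without sgCon tumor 4 the log2 fold change was 0.70 with an edgeR adjusted p of 0.0228. That tumor had the highest Tgfb3 level of the sgCon tumors, so leaving it out widens the difference and is no further support. The edgeR adjusted p was 0.233 without sgTaz tumor 3, 0.208 without sgTaz tumor 4 and 0.197 without sgCon tumor 5. Over all alternatives of the fit the log2 fold change stayed between 0.51 and 0.70 and the adjusted p of edgeR, DESeq2 or limma-voom between 0.00174 and 0.233.

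In whole tumors, more cells of a type that expresses a gene and more RNA of that gene per cell cannot be told apart. Macrophage markers, summed over 8 genes, were at 1037, 1597, 1311, 1787 and 759 CPM in sgCon tumors 1 to 5 and at 1877, 1478, 1955, 2068 and 2030 CPM in sgTaz tumors 1 to 5. All 8 of these genes had a positive log2 fold change, and 5 of them had an unadjusted p below 0.05 in edgeR. Of all genes tested, 9.86% were higher and 11.9% were lower in sgTaz tumors at that threshold. The marker counts in this paragraph are to be read against these shares. The sgCon tumor with the highest Tgfb3 level, tumor 4, was also the sgCon tumor with the highest macrophage sum and the lowest sums of B cell and lymph node stroma markers. From high to low Tgfb3, the sgCon tumors were 4, 1, 2, 5 and 3. In that order their lymph node stroma sums rose, at 35.4, 135, 146, 247 and 731 CPM, and their B cell sums rose too. The sgTaz tumors did not show this order. Summed fibroblast markers overlapped widely, from 1255 to 3233 CPM in sgCon and from 1311 to 3615 CPM in sgTaz tumors, and so did those of endothelium, from 341 to 445 and from 276 to 568 CPM. Of 7 fibroblast markers, Pdgfra (log2 fold change 1.09) and Pdgfrb (0.44) were higher and Thy1 (-0.61) was lower at an unadjusted p below 0.05 in edgeR. Markers of other lists were lower in sgTaz tumors at an unadjusted p below 0.05 in edgeR. These were 4 of 5 epithelial, 3 of 5 neutrophil, 4 of 5 T cell and 5 of 5 B cell markers, and every marker of these 4 lists had a negative log2 fold change. Neutrophil markers summed to 166 to 692 CPM in sgCon and 66.6 to 259 CPM in sgTaz tumors, T cell markers to 94.4 to 574 and 74.1 to 185 CPM, and B cell markers to 54.1 to 658 and 0.891 to 136 CPM. Without sgTaz tumor 5, the B cell sums of sgTaz tumors were 0.891 to 11.1 CPM. Adipocyte markers had a positive log2 fold change for all 4 genes tested, none of them at an unadjusted p below 0.05 in edgeR. They summed to 32.9, 35.8, 4.68, 9.27 and 22.6 CPM in sgCon tumors 1 to 5. In sgTaz tumors 1 to 5 the adipocyte sums were 2.61, 5.30, 89.5, 85.9 and 104 CPM. No marker of these lists was at 0 in all tumors. The part of these marker differences in the levels of Tgfb3 and of the receptors was not tested. The Tgfb3 level in sgTaz tumor 5, the sgTaz tumor with a high lymph node marker sum, was within the range of the other 4 sgTaz tumors. DESeq2 without that tumor gave a log2 fold change of 0.60 with an adjusted p of 0.00238. Leaving it out does not address the lymph node markers of the sgCon tumors, which were at 35.4 to 731 CPM.

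Tgfb1, the most widely expressed ligand and the one that most immune cells make, was at 115, 112, 135, 133 and 133 CPM in sgCon tumors. It was at 121, 108, 116, 106.5 and 116 CPM in sgTaz tumors. Sorted by level, 3 sgCon tumors were above every sgTaz tumor, and the other 2 lay among them. The mean was 126 ± 11.1 CPM (SD, n = 5) in sgCon and 113 ± 6.14 CPM (SD, n = 5) in sgTaz tumors. The log2 fold change of -0.15 (SE 0.074) had a 95% interval from -0.31 to 0.014 and an adjusted p of 0.267 in edgeR, and the exact permutation p was 0.0873. A Tgfb1 level lower by more than 0.31 on the log2 scale is thus outside the interval.

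Tgfb2 was the ligand with the fewest reads, 58 to 159 counts per tumor. Its level was 5.64, 6.86, 3.62, 8.83 and 8.22 CPM in sgCon tumors and 4.07, 6.52, 7.50, 8.34 and 4.66 CPM in sgTaz tumors. The groups covered nearly the same range. The log2 fold change was -0.094 (SE 0.27) with a wide 95% interval, from -0.69 to 0.50, and an adjusted p of 0.867 in edgeR. The exact permutation p was 0.810. A difference of 1.4-fold in either direction lies inside this interval, so differences of that size could not be shown with these tumors. In the annotation, exons of Tgfb2 share 124 bases with an antisense gene (Gm29491) and exons of Tgfb3 share 257 bases with a gene on the other strand (Gm48008). Neither of these genes is in the count table. Exons of Tgfb3 also overlap a further annotated gene, whose counts were not looked up. The strand setting of the counting is not given in the sources used here.

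Levels of different genes were compared per length, as CPM per kilobase of the union of annotated exons. On this scale Tgfb3 made up 58.6, 57.1, 50.3, 61.7 and 52.1% of the summed level of the 3 ligands in sgCon tumors 1 to 5. In sgTaz tumors 1 to 5 the share was 67.8, 68.1, 68.4, 68.3 and 67.0%. The shares did not overlap, with 56.0% ± 4.67 (SD, n = 5) against 67.9% ± 0.571 (SD, n = 5), and the sgTaz tumors spanned less than 2 percentage points. The share of Tgfb1 was 42.1% ± 4.86 (SD, n = 5) in sgCon and 30.6% ± 0.955 (SD, n = 5) in sgTaz tumors. Tgfb2 made up 1.91% ± 0.509 and 1.47% ± 0.446 (SD, n = 5 in each group). The shares restate the levels of the same counts and were therefore not tested on their own.

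Which ligand ranked first per length rested on the length used for Tgfb1. The union of its exons is 5042 bases and includes a retained intron, whereas its longest protein-coding transcript is 2175 bases. For Tgfb3, with 1 annotated transcript, the length is 3383 bases either way. With lengths of the longest protein-coding transcripts, Tgfb1 made up 62.5% in sgCon and 50.5% in sgTaz tumors, and Tgfb3 36.1% and 48.3%. The Tgfb3 share was then 30.7 to 41.7% in sgCon and 47.1 to 49.0% in sgTaz tumors. The order of these 2 ligands within a group is thus uncertain. A length is the same in every tumor and Tgfb2 was a small part of the sum. Another length could therefore hardly change whether the groups overlap, and it is no check of the shift between them.

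**Figure D2:**
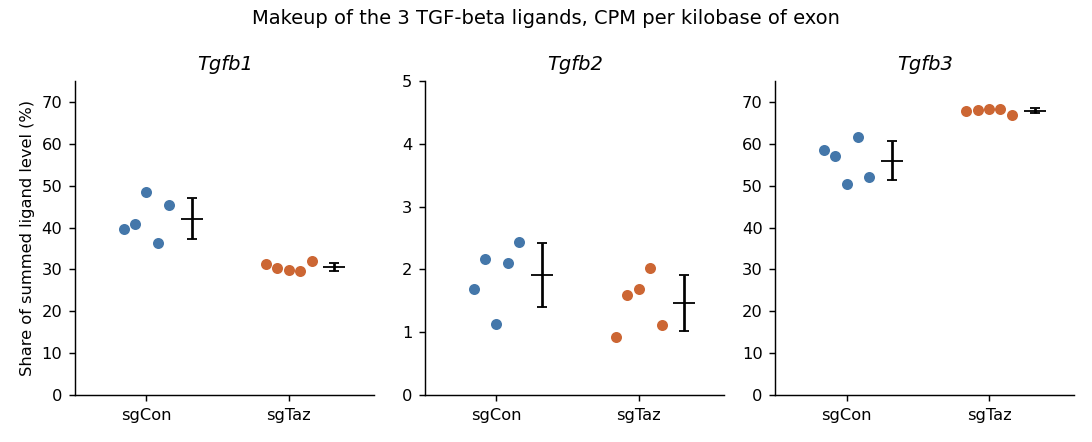
Share of each ligand in the summed CPM per kilobase of Tgfb1, Tgfb2 and Tgfb3 (y axis, percent, with its own scale for Tgfb2) in sgCon (blue) and sgTaz (orange) tumors, 1 point per tumor, with the group mean and SD in black. The Tgfb3 share was 50.3 to 61.7% in sgCon tumors and 67.0 to 68.4% in sgTaz tumors, and the Tgfb1 share was 36.2 to 48.6% and 29.6 to 31.9%.

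The 3 receptor genes had higher mean levels in sgTaz tumors, each with an unadjusted p below 0.05 in edgeR and none with an adjusted p below 0.05. Together with Tgfb3 they make 4 of 9 members that were higher at an unadjusted p below 0.05, against 9.86% of the genes tested. None of the 9 was lower at that threshold, against 11.9% of the genes tested.

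Tgfbr1, on chromosome 4 from 47353222 to 47414931 (plus strand), encodes the type I receptor kinase that phosphorylates SMAD2 and SMAD3. It was at 268, 252.3, 166, 259 and 198 CPM in sgCon tumors and at 370.2, 232, 333, 347 and 255 CPM in sgTaz tumors. The sgTaz tumors 1, 3 and 4 were above every sgCon tumor, while sgTaz tumors 2 and 5 fell within the sgCon range. This gave a log2 fold change of 0.43 (SE 0.16, 95% interval 0.070 to 0.79), with an unadjusted p of 0.0232 and an adjusted p of 0.171 in edgeR. The exact permutation p was 0.0714.

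Tgfbr2, on chromosome 9 from 116084293 to 116175360 (minus strand), encodes the type II receptor, which binds the ligand first and activates the type I receptor. It was at 190.1, 196, 204, 155 and 159.7 CPM in sgCon tumors and at 217, 167, 236, 239 and 244 CPM in sgTaz tumors. All sgTaz tumors except tumor 2 were above the sgCon range. Its log2 fold change was 0.29 (SE 0.12, 95% interval 0.030 to 0.54), with an adjusted p of 0.192 in edgeR and an exact permutation p of 0.0635. In limma-voom with quality weights the adjusted p was 0.0418.

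Tgfbr3, on chromosome 5 from 107106570 to 107289629 (minus strand), encodes betaglycan, which presents ligand to the type II receptor and is needed above all for TGF-beta 2. It had the largest fold change of the 9 genes and also a wide spread. Its level was 32.01, 62.4, 54.9, 60.7 and 35.2 CPM in sgCon tumors and 79.2, 35.2, 117, 99.7 and 75.9 CPM in sgTaz tumors. Again sgTaz tumor 2 was within the sgCon range and the other 4 were above it. On the log2 scale the fold change was 0.73 (SE 0.29, 95% interval 0.089 to 1.37), with an adjusted p of 0.186 in edgeR and an exact permutation p of 0.0952. In limma-voom with quality weights it was 0.95 with an adjusted p of 0.0493. Its exons share 297 bases with Gm43422 on the same strand, which had 0 to 23 counts per tumor, against 514 to 2188 for Tgfbr3.

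One tumor bore on all 3 receptors. The sgTaz tumor with the lowest level of each of them was tumor 2, which also had the lowest macrophage and endothelial marker sums of the sgTaz tumors and the highest epithelial marker sum, 2806 CPM against 1381 to 1682 CPM in the other 4. Without it the log2 fold changes were 0.51 for Tgfbr1, 0.37 for Tgfbr2 and 0.92 for Tgfbr3, with edgeR adjusted p of 0.0946, 0.0708 and 0.0626. The exact permutation p was then 0.0476 for Tgfbr1 and 0.0159 for both Tgfbr2 and Tgfbr3. Since tumor 2 was singled out by its receptor levels, these p-values are a description of its weight and no further support. For Tgfbr2 and Tgfbr3 it was the only sgTaz tumor not above the sgCon range. Their permutation p of 0.0159 was therefore fixed once tumor 2 was left out. The number of members higher at an unadjusted p below 0.05 was 1 in place of 4 without sgCon tumor 5, without sgTaz tumor 3 or without sgTaz tumor 4.

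The makeup of the receptors was alike in its means. Tgfbr1 made up 53.9% ± 6.42 (SD, n = 5) of the summed receptor CPM per kilobase in sgCon and 54.5% ± 4.39 (SD, n = 5) in sgTaz tumors. The share of Tgfbr2 was 34.5% and 31.5%, and that of Tgfbr3 was 11.6% and 14.0%. All 3 shares overlapped between the groups.

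**Figure D3:**
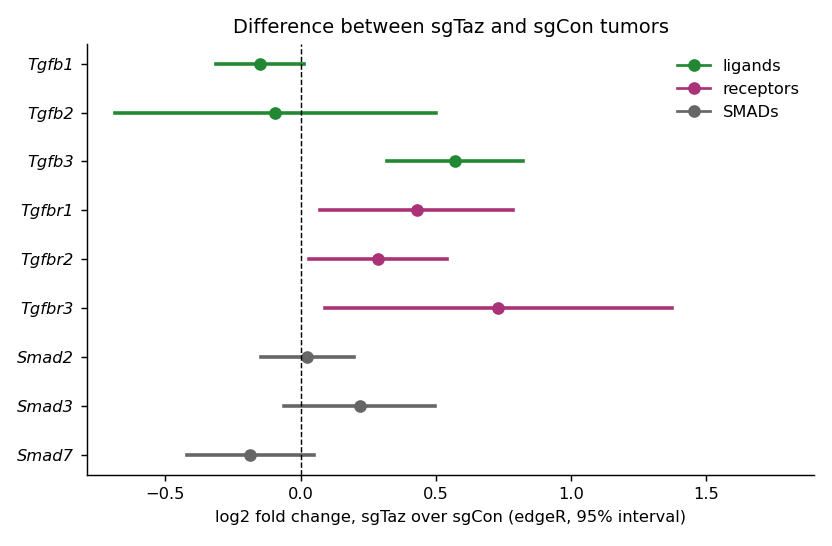
Log2 fold change of each gene, sgTaz over sgCon, from edgeR (x axis), with its 95% interval as a line; ligands are in green, receptors in magenta and SMADs in gray, and the dashed line marks no difference. The intervals of Tgfb3 (0.32 to 0.82) and of the 3 receptors lie above 0, and those of the other 5 genes include 0.

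The SMAD genes differed less between the groups than the receptors did in their mean fold. Smad2 and Smad7 lie on chromosome 18, from 76241580 to 76310963 and from 75367529 to 75395935, both on the plus strand, and Smad3 lies on chromosome 9 from 63646767 to 63757994 on the minus strand.

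Smad2, which encodes a SMAD that the receptors phosphorylate, had the smallest fold change of the 9 genes. It was at 53.4, 49.7, 50.3, 44.9 and 58.1 CPM in sgCon tumors and at 50.2, 54.0, 51.6, 54.2 and 51.0 CPM in sgTaz tumors. The sgTaz tumors lay inside the sgCon range. With a log2 fold change of 0.025 (SE 0.078), it had an adjusted p of 0.876 in edgeR, and its 95% interval, -0.15 to 0.20, leaves out changes beyond 1.15-fold. The exact permutation p was 0.651.

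Smad3, the other SMAD that the receptors phosphorylate, binds DNA itself. It was at 216, 159, 122, 174 and 157 CPM in sgCon tumors and at 181, 196, 217, 185 and 184 CPM in sgTaz tumors. The highest sgCon tumor, tumor 1, was level with the highest sgTaz tumor, and the other 4 sgCon tumors were below every sgTaz tumor. Between the groups the log2 fold change was 0.22 (SE 0.13, 95% interval -0.062 to 0.50), with an adjusted p of 0.340 in edgeR and an exact permutation p of 0.127. Without sgCon tumor 1 it was 0.33 with an edgeR adjusted p of 0.118 and an exact permutation p of 0.0159. That tumor was the only sgCon tumor not below every sgTaz tumor. The permutation p was therefore fixed once it was left out and is no further support.

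Smad7, itself a target of the pathway that encodes its inhibitor, was at 79.7, 64.5, 75.2, 62.2 and 88.1 CPM in sgCon tumors. It was at 58.7, 72.4, 59.5, 68.2 and 66.3 CPM in sgTaz tumors. The groups overlapped, with 3 sgCon tumors above every sgTaz tumor. The mean of 65.0 ± 5.86 CPM (SD, n = 5) in sgTaz tumors was lower than the 73.9 ± 10.7 CPM (SD, n = 5) in sgCon tumors. The log2 fold change of -0.19 (SE 0.11, 95% interval -0.42 to 0.048) had an adjusted p of 0.330 in edgeR and an exact permutation p of 0.143.

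As a set, 6 of the 9 log2 fold changes were positive and 3 negative, with a median of 0.22. The median over all genes tested was -0.019. With DESeq2, 1 of the 9 had an adjusted p below 0.05 (Tgfb3), and with limma-voom 3 did (Tgfb3, Tgfbr2 and Tgfbr3), all of them higher in sgTaz tumors. Over all genes tested, these tools called 6.87% and 10.4%.

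Ordered by level, the genes were much alike in both groups. In sgCon tumors the order in CPM per kilobase was Tgfbr1 (35.0), Tgfb3 (33.6), Smad3 (29.9), Tgfb1 (24.9), Tgfbr2 (22.1), Smad7 (16.4), Tgfbr3 (7.49), Smad2 (5.84) and Tgfb2 (1.15). Ranges over the 5 sgCon tumors overlapped between neighbours in this order, except between Smad7 and Tgfbr3 and between Smad2 and Tgfb2. In sgTaz tumors Tgfb3 was first at 49.9, followed by Tgfbr1 at 47.1, Smad3 at 34.8, Tgfbr2 at 26.9 and Tgfb1 at 22.5, and the last 4 kept their order. There, neighbours did not overlap between Smad3 and Tgfbr2, between Tgfb1 and Smad7, and between Smad2 and Tgfb2. With the longest protein-coding transcript as length, the top of the order changed in both groups. In sgCon tumors Tgfb1 was then first at 57.8, followed by Tgfbr1 at 39.7 and Tgfb3 at 33.6. In sgTaz tumors Tgfbr1 was first at 53.4, followed by Tgfb1 at 52.1 and Tgfb3 at 49.9. Tgfb2 was the lowest of the 9 in both groups with either length.

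Other genes of the pathway were taken from 6 lists with 48 genes, of which 47 were tested, since Smad9 with 0 to 3 counts was below the filter. Of the 47 genes, 8 were higher and 3 were lower in sgTaz tumors at an unadjusted p below 0.05 in edgeR, where 9.86% of all genes tested were higher and 11.9% were lower. The counts of the lists below are to be read against these shares. None had an adjusted p below 0.05, and the lowest was 0.0896. DESeq2 called 5, all of them higher, against 6.87% of all genes tested in either direction. Of the log2 fold changes 24 were positive and 23 negative, and their median was 0.0014.

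Among 11 genes that hold ligands latent or release them, 3 were higher at an unadjusted p below 0.05 (9.86% of all genes tested) and none was lower (11.9%), with a median log2 fold change of 0.14. These were Itgav, Itgb8 and Ltbp4. Itgav encodes integrin alpha v, the chain shared by the integrins that release active TGF-beta 1 and 3, and was at 206 ± 16.7 CPM in sgCon and 273 ± 27.1 CPM in sgTaz tumors (SD, n = 5 each). It did not overlap between the groups (182 to 223 and 228 to 297 CPM), where 2.44% of all genes tested were without overlap and higher in sgTaz. Its log2 fold change of 0.40 (SE 0.087) had an adjusted p of 0.0896 in edgeR and 0.00214 in DESeq2. Without sgTaz tumor 5 its edgeR adjusted p was 0.0410, in a fit that called 172 genes of all those tested. Itgb8 encodes a partner of this chain and was low, at 2.41 ± 0.675 CPM in sgCon and 4.58 ± 1.55 CPM in sgTaz tumors (SD, n = 5 each), a log2 fold change of 0.92 (SE 0.28). Itgb6, the epithelial partner, had a log2 fold change of -0.77 (SE 0.38) and an edgeR adjusted p of 0.261. Ltbp4, a latent TGF-beta binding protein, had 0.47 (SE 0.14).

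Of 4 further receptors or receptor-like genes, 2 were higher and 1 was lower at an unadjusted p below 0.05. Eng encodes endoglin, a co-receptor of endothelial cells, and was at 150.1 ± 16.3 CPM in sgCon and 189.8 ± 8.28 CPM in sgTaz tumors (SD, n = 5 each). All 5 sgTaz tumors were above the sgCon tumors, as held for 2.44% of all genes tested. The log2 fold change of 0.34 (SE 0.080) had an adjusted p of 0.0960 in edgeR and 0.00791 in DESeq2. Acvrl1 (ALK1), the type I receptor it works with, had a log2 fold change of 0.26 (SE 0.099). Acvr1b, a type I receptor for activins, had -0.34 (SE 0.11). The marker sum of endothelium overlapped between the groups, and none of its 5 genes had an unadjusted p below 0.05.

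The other SMAD genes were close to 0. Smad4, the partner of SMAD2 and SMAD3, had a log2 fold change of 0.025 (SE 0.092). Smad1 and Smad5 of the bone morphogenetic protein branch had -0.0011 and 0.0014, with the sign of Smad1 turning without sgTaz tumor 5 (0.0076), and Smad6, an inhibitor of that branch, had 0.14 (SE 0.19). Of 14 regulators inside the cell, 3 were higher and none was lower at an unadjusted p below 0.05, with a median of 0.026. Ski, a co-repressor of SMADs, had a log2 fold change of 0.21 (SE 0.076), and Zfyve9 (SARA), which brings SMAD2 to the receptor, had 0.34 (SE 0.14). Ldlrad4, which limits SMAD phosphorylation, was at 15.9 ± 1.85 CPM in sgCon and 20.8 ± 1.27 CPM in sgTaz tumors (SD, n = 5 each). It did not overlap between the groups, where 2.44% of all genes tested were without overlap and higher in sgTaz. Its adjusted p was 0.0999 in edgeR and 0.0171 in DESeq2. The largest negative value in this list was -0.28 (SE 0.17) for Nedd4l, a ubiquitin ligase.

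Lists of binding proteins in the matrix and of target genes had negative medians, -0.37 over 3 genes and -0.22 over 11 genes. Fmod (fibromodulin), a matrix proteoglycan that binds TGF-beta, was at 15.0 ± 4.98 CPM in sgCon and 6.44 ± 4.51 CPM in sgTaz tumors (SD, n = 5 each), a log2 fold change of -1.22 (SE 0.50) with an adjusted p of 0.195 in edgeR, and of -1.64 with an adjusted p of 0.106 without sgTaz tumor 5. Bgn and Dcn, of the same family, had -0.37 (SE 0.25) and 0.035 (SE 0.35), and the sign of Dcn turned without sgTaz tumor 5 (-0.21). Of the 11 target genes, 3 had a positive and 8 a negative log2 fold change, from -0.79 to 0.38. At an unadjusted p below 0.05, 1 target gene was lower and none was higher. This was Tagln, a gene of contractile cells, at 123 ± 37.4 CPM in sgCon and 71.0 ± 27.4 CPM in sgTaz tumors (SD, n = 5 each), with a log2 fold change of -0.79 (SE 0.30) and an adjusted p of 0.167 in edgeR. Acta2, which encodes smooth muscle actin, had -0.38 (SE 0.30), and Ctgf, which is also a textbook target of TAZ with TEAD, had -0.42 (SE 0.26) with an edgeR adjusted p of 0.365. Many of these targets answer to other pathways too, so their levels are no measure of TGF-beta activity alone.

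**Figure D4:**
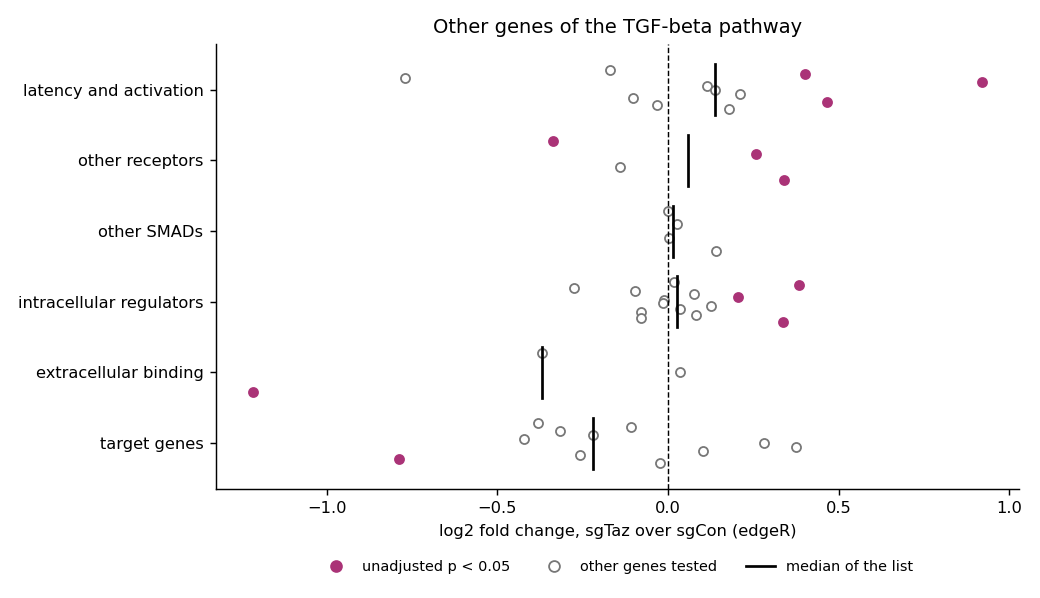
Log2 fold change from edgeR, sgTaz over sgCon (x axis), of the 47 other TGF-beta pathway genes tested, by list (y axis); filled points had an unadjusted p below 0.05, open points did not, black bars are list medians and the dashed line marks no difference. The 8 filled points to the right of 0 are in the lists of latency and activation, other receptors and intracellular regulators, and the 3 to the left are in other receptors, extracellular binding and target genes.

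For each of the 9 genes, the tested gene with the most similar course over the 10 tumors was found from Pearson's r of log2 CPM after the group means were taken off. The points share library and depth, and the best of 14815 genes reaches a high r in so few tumors, so these values are a description. For Tgfb3 it was Ssbp3 (r = 0.97, Spearman's rho 0.98), followed by Thra (r = 0.96, rho 0.87). For Tgfb1 the first was Pdk2 (r = 0.94, rho 0.93) and for Tgfb2 Gas5 (r = 0.93, rho 0.93). Tgfbr1 was closest to Ctbp2 (r = 0.97, rho 0.96), Tgfbr2 to Casp9 (r = 0.98, rho 0.92) and Tgfbr3 to Rasa2 (r = 0.97, rho 0.92). Smad2 was closest to Rsrc2 (r = 0.94, rho 0.78), Smad3 to Clstn1 (r = 0.98, rho 0.79) and Smad7 to Clu (r = 0.95, rho 0.96). No member of the 9 was among the first 2 for another. Without the 2 tumors farthest from the median, these r of the first genes lay between 0.79 and 0.97, the lowest for Smad2 with Rsrc2.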

How the data were processed

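RNA of 10 whole tumors was extracted with Trizol and sequenced on an Illumina HiSeq. Reads were aligned by the authors to mm10 (STAR, 2-pass mode, GENCODE v12 annotation by the methods), who deposited raw counts per gene from featureCounts for 17864 genes. Tool versions and strand setting are not given in the sources used here. The table holds 5 columns without a sample here, which were not used. Columns were assigned to groups by name. GENCODE M21, matched for 17860 genes, gave names, positions and lengths. Sequences were read from the GENCODE M21 transcripts, with bases located by the annotated mm10 positions.

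Counts were tested with edgeR 4.0.16 in R 4.3.3 (TMM, filterByExpr, glmQLFit and glmQLFTest, Benjamini-Hochberg adjustment over 14816 genes, threshold 0.05). Alternatives were DESeq2 1.42.0, limma 3.58.1 (voom with quality weights), RLE, no filter, at least 10 counts in every tumor, the replicate number as a block, and each tumor left out. Single genes were tested with exact permutation tests on log2 CPM (prior count 2, alternatively 0.5). Lengths of the longest protein-coding transcript and DESeq2 without sgTaz tumor 5 were added after seeing the data. Members, pathway lists and marker lists were chosen with earlier results of these data known. One gene of the target list is not reported here, and counts over the lists leave it out. Named are all members, genes of the lists at an unadjusted p below 0.05 or among the 3 largest absolute log2 fold changes of a list (for markers, those beside a result), the genes with the highest r, and Wwtr1. The scripts were tested on simulated data. No pair of tumors of a group agreed within sampling noise. Same-numbered tumors did not deviate together (r from -0.24 to 0.22), so the numbers were not taken as pairs.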

Additional observations from a re-analysis of the deposited data

How the results depend on the processing

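Of the 9 genes, the number higher at an adjusted p below 0.05 was 0 in edgeR, 1 in DESeq2, 3 in limma-voom, 1 in DESeq2 without sgTaz tumor 5, and 0 to 1 when each tumor was left out of the edgeR fit. At an unadjusted p below 0.05 it was 1 to 4 higher and 0 to 1 lower when tumors were left out. Of the other pathway genes, 5 were higher with DESeq2, 5 with limma-voom and 4 with DESeq2 without sgTaz tumor 5 at an adjusted p below 0.05, against 0 in edgeR and 0 to 1 when tumors were left out. Lower were 0, 3 and 1 with these tools, and 0 in edgeR. At an unadjusted p below 0.05, 6 were lower with limma-voom, and 5 to 9 were higher and 1 to 6 lower when tumors were left out. The cause was not tested. Over all genes tested, edgeR called 1 gene, DESeq2 1081 and limma-voom 1546, a filter of at least 10 counts gave 5, and leaving out a tumor gave 0 to 172, the most without sgTaz tumor 5 and 75 without sgTaz tumor 2. No filter gave 0 in edgeR, with 3610 at an unadjusted p below 0.05. The median log2 fold change of all genes stayed within 0.1 of 0 under every scaling.

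The replicate block was not adopted, since same-numbered tumors did not deviate together and only tumor 5 correlated best with its own number. In edgeR with the replicate block, Tgfb3 had a log2 fold change of 0.59 and an adjusted p of 0.154, and 3 members were higher at an unadjusted p below 0.05. No gene of all those tested was called, with 2462 at an unadjusted p below 0.05. In the exact sign-flip test of the 5 differences, 0 members passed, since the smallest p it allows is 0.0625, which Tgfb3 reached at a mean difference of 0.59.

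Exact permutation tests gave 1 member below 0.05, 2 with RLE scaling and 1 to 4 when tumors were left out. The sign of Tgfb2 turned, with log2 fold changes from -0.24 to 0.032 when tumors were left out and 0.013 in DESeq2 without sgTaz tumor 5, and with mean log2 CPM differences from -0.27 to 0.059. The sign of Smad2 turned without sgCon tumor 4, with log2 fold changes from -0.018 to 0.074 and mean differences from -0.017 to 0.076 when tumors were left out. With the longest transcript as length, Tgfb1 made up 58.6% of ligands in sgCon and 46.3% in sgTaz tumors and Tgfb3 39.9% and 52.4%. With the longest protein-coding transcript these were 62.5% and 50.5%, and 36.1% and 48.3%, with Tgfb2 at 1.39% in sgCon tumors. In both cases the change comes from the shorter length of Tgfb1.

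With 5 tumors a group, intervals of Tgfb2 and Tgfbr3 are wide. Protein, ligand activation and SMAD phosphorylation were not measured, and cell types were not separated.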
